A study of Mus musculus with 12 samples.

Results

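The collagen genes were the 43 rows of the count table, of 23284 in all, whose symbol is Col followed by a type number, the letter a and a chain number. Col26a1 stands in the table under its older symbol Emid2 and lay outside this rule. By textbook class they comprised 11 fibrillar chains, 9 network-forming chains, 9 fibril-associated chains, 4 transmembrane chains, 6 type VI (beaded filament) chains, 2 multiplexins (Col15a1 and Col18a1), the anchoring fibril chain Col7a1, and Col28a1, which was left outside these classes. The RNA was taken from whole fibrocartilage of the mandibular condyle, the articular head of the lower jaw, in female C57BL/6 mice aged 17 weeks. All the mice, controls included, had lost their ovaries at 16 weeks and then received a pellet with 0.01 mg of estradiol (E2) made for release over 60 days, or a placebo, for 1 week. The 12 libraries formed the groups ERalphaKO with E2 (n = 3), ERalphaKO with placebo (n = 4), wild type (WT) with E2 (n = 3) and WT with placebo (n = 2). ERalphaKO is a knockout of estrogen receptor alpha, and the labels give neither its allele nor the cells in which the gene was removed. Nor do the labels say whether each replicate was its own animal, and the p-values therefore measure only the spread among these libraries, which may in part be technical.

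Collagens are proteins of the extracellular matrix in which chains wind into a triple helix. Fibrillar collagens form the load-bearing fibrils, with type I typical of fibrous tissue and bone and type II of cartilage. Network collagens form sheets such as basement membranes, fibril-associated collagens coat or bridge fibrils, and transmembrane collagens sit in the cell surface. The condylar fibrocartilage has a fibrous surface zone over a zone of chondrocytes, and so holds both type I and type II collagen.

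Col8a1 and Col28a1 were the collagens that passed the edgeR test used below in at least 1 comparison. The 250 bases before their first transcribed base are shown with those of Col8a2, which encodes the other chain of type VIII collagen. The sequences are from RefSeq on build GRCm38.p6, which had promoter windows for 35 of the 43 genes. Capitals mark the GC box, GGGCGG or its reverse complement CCGCCC. The Col8a1 stretch lies at chr16:57754738-57754987 on the minus strand, that of Col8a2 at chr4:126286544-126286793 on the plus strand, and that of Col28a1 at chr6:8192618-8192867 on the minus strand.
Col8a1: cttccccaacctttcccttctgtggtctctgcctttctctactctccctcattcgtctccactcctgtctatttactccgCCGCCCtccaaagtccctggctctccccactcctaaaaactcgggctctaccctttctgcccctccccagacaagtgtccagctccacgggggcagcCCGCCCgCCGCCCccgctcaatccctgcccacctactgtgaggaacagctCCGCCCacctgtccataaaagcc
Col8a2: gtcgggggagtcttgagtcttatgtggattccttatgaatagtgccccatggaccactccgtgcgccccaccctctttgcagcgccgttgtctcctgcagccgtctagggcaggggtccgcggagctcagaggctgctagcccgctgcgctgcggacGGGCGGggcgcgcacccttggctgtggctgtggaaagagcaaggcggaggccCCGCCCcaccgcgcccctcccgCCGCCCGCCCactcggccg
Col28a1: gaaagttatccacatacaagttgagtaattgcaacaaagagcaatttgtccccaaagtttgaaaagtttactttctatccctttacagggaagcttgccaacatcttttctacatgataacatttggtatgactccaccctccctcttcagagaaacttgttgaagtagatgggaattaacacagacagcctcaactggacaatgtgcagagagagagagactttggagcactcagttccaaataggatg
Col8a1 and Col8a2 each had 4 GC boxes, and in Col8a2 the last pair shared bases. Counting the first transcribed base as position 1 with no position 0, those of Col8a1 began at positions -170, -73, -66 and -23, and those of Col8a2 at -93, -41, -19 and -15. Over the whole 300-base RefSeq windows, which add 50 transcribed bases and were searched on both strands, a GC box was present in 60.5% of the 38 collagen windows and in 35.7% of all 32851 windows. The full estrogen response element, GGTCA and TGACC set 3 bases apart, was found in 0 of the 38 collagen windows and in 0.07% of all windows. Its half-site GGTCA, which the full element contains, was found in 36.8% of collagen windows and 40.5% of all windows, and not in those of Col8a1, Col8a2 or Col28a1. The window of Col28a1 held none of the searched motifs, which also included the TATA box TATAAA (13.2% of collagen windows, 13.6% of all) and the CCAAT box CCAAT (34.2% and 37.4%). These matches describe the letters in these windows and say nothing on whether a factor binds there.

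Library totals ranged from 9.70 to 28.8 M counts (M is the SI prefix mega). Levels below are CPM (counts scaled to the same library total) on library sizes scaled by trimmed mean of M values. Esr1, the gene of estrogen receptor alpha, averaged 5.33 ± 0.680 CPM in ERalphaKO E2, 4.63 ± 0.949 CPM in ERalphaKO placebo, 10.4 ± 1.77 CPM in WT E2 and 15.9 ± 2.35 CPM in WT placebo libraries (SD), and was lower in ERalphaKO over both treatments (log2 fold change -1.37 ± 0.14 SE, edgeR quasi-likelihood test, Benjamini-Hochberg adjusted p = 0.00232). Of 10 chondrocyte and fibrocartilage markers, 7 reached 1 CPM in every library, among them Acan (620.4 to 1962 CPM), Comp (1170.0 to 5228 CPM) and Prg4 (66.0 to 390.3 CPM). The 9 granulocyte markers found summed to 16660 CPM in ERalphaKO placebo replicate 3 and to 6861 CPM in ERalphaKO E2 replicate 1, against at most 2350 CPM elsewhere. The 10 skeletal muscle markers ranged from 6.86 CPM in WT placebo replicate 1 to 4456 CPM in ERalphaKO placebo replicate 3. Results that change when both granulocyte-rich libraries are left out are given with that value.

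Collagens took a large part of the RNA. All 43 genes together held 12.3, 13.1 and 13.8% of counts in ERalphaKO E2 libraries, 11.8, 13.2, 9.84 and 13.4% in ERalphaKO placebo, 10.9, 12.2 and 11.8% in WT E2 and 14.1 and 14.8% in WT placebo, with 95% Wilson intervals, which cover counting error only, at most 0.0425 percentage points wide. The WT E2 libraries lay below both WT placebo libraries, while ERalphaKO E2 and ERalphaKO placebo overlapped. Fibrillar chains made up 81.4 to 90.05% of collagen counts over the 12 libraries, type VI chains 4.88 to 11.3%, fibril-associated chains 3.59 to 5.22%, network chains 0.929 to 1.72% and transmembrane chains 0.179 to 0.276%. The network share averaged 1.01% ± 0.06 in ERalphaKO E2, 1.14% ± 0.09 in ERalphaKO placebo, 1.56% ± 0.19 in WT E2 and 1.03% ± 0.15 in WT placebo libraries (SD, n = 3, 4, 3 and 2). Differences in these shares were not tested.

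**Figure D1:**
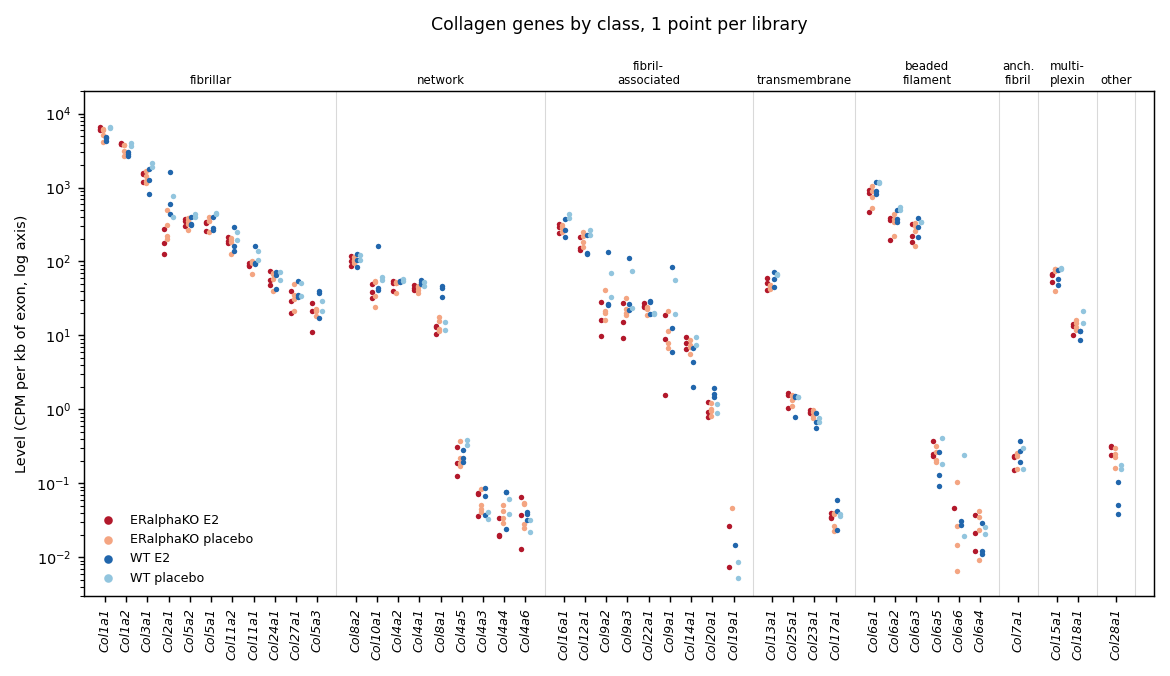
Level of each of the 43 collagen genes in CPM per kilobase of exon (log axis), 1 point per library, ordered within class by mean level. Fibrillar and type VI chains lead, most classes also hold chains near 0, and values of 0 (Col19a1 and Col6a6) cannot be drawn on this axis.

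To compare genes, levels were divided by the length of their combined exons, as CPM per kb averaged over the 12 libraries. Among fibrillar chains, Col1a1 and Col1a2, the chains of type I collagen, led with 5559.9 and 3448 CPM per kb, ahead of Col3a1, the type III chain of soft connective tissue (1473), and Col2a1, the chain of cartilage type II collagen (467). Of the type V chains, which set fibril diameter, Col5a2 and Col5a1 stood at 352 and 344 CPM per kb and Col5a3 at 24.0. The type XI chains Col11a2 and Col11a1, which nucleate cartilage fibrils, stood at 194 and 102, and the later-described fibrillar chains Col24a1 and Col27a1 at 60.1 and 36.2 CPM per kb. The order thus placed the type I and III chains above the type II and XI chains of cartilage in the mean of these libraries. Type I is also the collagen of bone. Over the 12 libraries, 10 osteoblast and osteocyte markers summed to 4597 to 11070 CPM and 6 osteoclast markers to 6726 to 10150 CPM. The part of bone cells in the type I levels was not tested.

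Among network chains, Col8a2 (105 CPM per kb) stood above Col10a1, the type X chain that marks hypertrophic chondrocytes (54.2), the ubiquitous basement membrane chains Col4a2 and Col4a1 (50.7 and 46.8) and Col8a1 (20.3). The other type IV chains, Col4a3, Col4a4, Col4a5 and Col4a6, lay between 0.0368 and 0.249 CPM per kb. Of the fibril-associated chains, Col16a1 (307) and Col12a1 (191), found along type I and other fibrils, led, followed by the type IX chains of cartilage fibrils, Col9a2 (37.0), Col9a3 (33.6) and Col9a1 (21.3), and by Col22a1 (23.5), known from tissue junctions. Col14a1 stood at 6.88 and Col20a1 at 1.17 CPM per kb, and Col19a1 had 16 counts in all, with 0 in 6 libraries. Col13a1 was the one well-expressed transmembrane chain (53.4 CPM per kb), above Col25a1 (1.37), Col23a1 (0.822) and Col17a1 (0.0364), a chain of epithelial hemidesmosomes.

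The type VI chains Col6a1, Col6a2 and Col6a3, which build the filaments around cells, stood at 892, 381 and 280.0 CPM per kb, whereas Col6a4, Col6a5 and Col6a6 each stayed below 1 CPM per kb. The multiplexins Col15a1 and Col18a1 stood at 66.6 and 13.5, the anchoring fibril chain Col7a1 at 0.234 and Col28a1 at 0.195 CPM per kb. In plain CPM, 13 genes averaged at least 1000, 14 between 100 and 1000, 8 between 1 and 100 and 8 under 1, and 33 reached 1 CPM in every library. Of the 43, 39 passed the filter on low counts and were tested among 14832 genes. Col4a6, Col6a4, Col17a1 and Col19a1 did not pass, so nothing below covers them.

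The abundant type VI chains followed each other across libraries. Col6a1 had 2064, 4112 and 3678 CPM in ERalphaKO E2 libraries, 3935, 3299, 2331 and 4595 CPM in ERalphaKO placebo, 3878, 5171 and 3610.3 CPM in WT E2 and 5258 and 4962 CPM in WT placebo. Its levels ran from ERalphaKO E2 replicate 1, the lowest, to both WT placebo libraries and WT E2 replicate 2 at the top. Col6a2 ran parallel to it, at 1599.7, 3219.8 and 3015 CPM in ERalphaKO E2 libraries, 3098, 2812, 1856 and 3613 CPM in ERalphaKO placebo, 3136, 4184 and 2810.4 CPM in WT E2 and 4551 and 4178 CPM in WT placebo. Col6a3 had 2209.8, 2680.2 and 3847 CPM in ERalphaKO E2 libraries, 3100.1, 3652, 1936 and 3955 CPM in ERalphaKO placebo, 3521, 4639 and 2549 CPM in WT E2 and 4067 and 4041 CPM in WT placebo. The lowest levels of all 3 chains were in ERalphaKO E2 replicate 1 and ERalphaKO placebo replicate 3, the libraries with the highest granulocyte marker sums, and the part of granulocyte RNA in this was not tested. None of the type VI chains passed a test.

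With E2 in WT fibrocartilage, 1 collagen gene passed the test, Col8a1, which rose 2.98-fold. In that comparison 0.458% of all tested genes passed. DESeq2 called 2 collagens, Col8a1 and Col18a1, beside 1.64% of all genes, and the authors' deposited table called 4, these with Col1a1 and Col1a2, beside 1.75%. Of the 39 collagens, 12 had a positive and 27 a negative log2 fold change, with a median of -0.17 beside a median of -0.0043 over all genes. At an unadjusted p under 0.05, 3 collagens were higher and 8 lower, where 4.42% of all genes were higher and 3.73% lower. The WT E2 libraries lay wholly below the WT placebo libraries for 11 collagens and wholly above for 2, against 13.7% and 13.2% of all genes.

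With E2 in ERalphaKO fibrocartilage, 0 collagens passed the edgeR test, as did 0% of all genes, and 0 passed in DESeq2 (0% of all genes) or in the authors' deposited table (0.0494% of all genes). Of the 39, 0 had an unadjusted p under 0.05, where 5.7% of all genes did. The smallest p was that of Col1a2, with a log2 fold change of 0.25 ± 0.13 (95% interval -0.06 to 0.55, edgeR adjusted p = 0.911). The median was -0.03 and the estimates ran from -1.24 for Col6a6 to 0.28 for Col28a1.

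**Figure D2:**
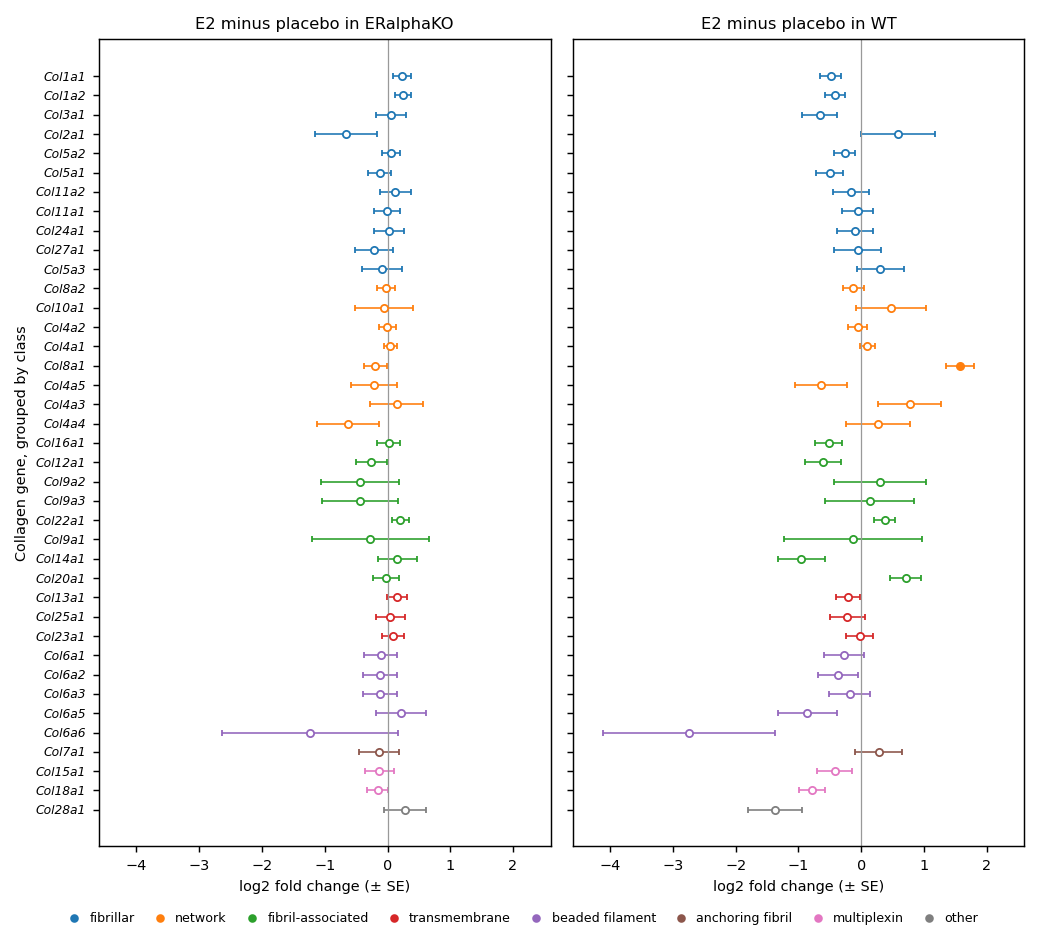
Log2 fold change of E2 over placebo (± SE) for the 39 tested collagens, in ERalphaKO on the left and WT on the right, colored by class, with filled points where the edgeR adjusted p is under 0.05. Col8a1 in WT (1.58) is the one filled point, and the ERalphaKO estimates lie closer to 0 than the WT ones for most fibrillar chains.

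Col8a1 encodes a short-chain network collagen of vessel walls, the cornea and sites of matrix remodelling. It had 103, 82.5 and 106 CPM in ERalphaKO E2 libraries and 89.5, 140.0, 94.4 and 121 CPM in ERalphaKO placebo libraries. It had 339, 259 and 360.2 CPM in WT E2 libraries and 120.4 and 94.0 CPM in WT placebo libraries. All 3 WT E2 libraries thus stood above every one of the other 9, and the other groups overlapped. In bulk tissue a change in the number of cells that express a gene and a change in the RNA per cell cannot be told apart.

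In WT, the E2 effect on Col8a1 was a log2 fold change of 1.58 ± 0.23 SE (95% interval 1.05 to 2.10, edgeR adjusted p = 0.0172). In ERalphaKO it was -0.19 ± 0.18 (95% interval -0.61 to 0.22, edgeR adjusted p = 0.991). The difference between these effects, ERalphaKO minus WT, was -1.77 ± 0.29 (95% interval -2.43 to -1.11). It did not pass the edgeR test (adjusted p = 0.0720) and passed in DESeq2 (adjusted p = 6.31e-07). For the E2 effect in WT, the call was kept in 14 of 20 alternative settings and lost, among others, without WT placebo replicate 1 (edgeR adjusted p = 0.138), WT placebo replicate 2 (0.318), WT E2 replicate 1 (0.0665) or WT E2 replicate 3 (0.0606), with estimates between 1.41 and 1.76 in all 20.

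With E2 in both genotypes, Col8a1 was 3.28-fold lower in ERalphaKO than in WT (log2 fold change -1.72 ± 0.20, 95% interval -2.17 to -1.26, edgeR adjusted p = 0.00204), where 1.1% of all genes passed. This call was kept in all 20 alternative settings, with edgeR and DESeq2 adjusted p between 1.56e-15 and 0.0229. It uses the same WT E2 libraries as the E2 effect in WT. With placebo the genotype difference was 0.05 ± 0.20 (95% interval -0.42 to 0.52, edgeR adjusted p = 0.962). Averaged over both treatments it was -0.83 ± 0.14 (edgeR adjusted p = 0.0242), beside 0.978% of all genes called. That call was kept in 11 of 19 alternative settings, with estimates between -0.92 and -0.74. It was lost in the replicate block (edgeR adjusted p = 0.0940), without both granulocyte-rich libraries (0.0502), and without any 1 of WT placebo replicates 1 and 2, WT E2 replicate 1, ERalphaKO placebo replicate 1 and ERalphaKO E2 replicates 1 and 3, where it was between 0.0505 and 0.186.

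Col8a2, the partner chain, had 395, 524 and 449 CPM in ERalphaKO E2 libraries, 511, 449.6, 424 and 473 CPM in ERalphaKO placebo, 467, 559 and 378 CPM in WT E2 and 552 and 472 CPM in WT placebo. The 4 groups overlapped. Its E2 effect in WT was -0.13 ± 0.17 (95% interval -0.52 to 0.26, edgeR adjusted p = 0.901) and its genotype difference with E2 was -0.04 ± 0.15 (95% interval -0.39 to 0.31, edgeR adjusted p = 0.969). On the scale of CPM per kb, the ratio of Col8a1 to Col8a2 therefore averaged 0.409 ± 0.141 in WT E2 libraries and 0.120 ± 0.00774 in WT placebo libraries (SD, n = 3 and 2).

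Some markers of other cells moved in the same libraries. The 10 osteoblast and osteocyte markers summed to 6173 to 6588 CPM in ERalphaKO E2, 4597 to 6411 CPM in ERalphaKO placebo, 7040 to 11070 CPM in WT E2 and 6236 to 6360 CPM in WT placebo libraries, with all 10 at 1 CPM or more everywhere. The 8 macrophage markers summed to 709.7 to 1141 CPM in WT E2 and 622.8 to 777.7 CPM in WT placebo libraries, and the 8 endothelial markers to 264.8 to 469.7 and 274.5 to 297.1 CPM, so both sums overlapped. Of the osteoblast and osteocyte markers, 7 had a positive and 3 a negative log2 fold change with E2 in WT. Ibsp, the largest part of their sum, averaged 4654 CPM in WT E2 and 2352 CPM in WT placebo libraries. Dmp1 (599 and 738 CPM), Mepe (185 and 210 CPM) and Sp7 (382 and 392 CPM) averaged lower in WT E2. Single markers did not all overlap. With E2 in WT, 5 of 8 macrophage markers (C1qa, C1qb, C1qc, Emr1 and Mrc1) lay wholly above WT placebo at unadjusted p-values under 0.05. So did 3 of 10 osteoblast and osteocyte markers (Alpl, Ibsp and Sost) and 1 of 8 endothelial markers (Vwf). Of all genes, 13.2% lay wholly above and 4.42% were higher at that p. Vwf averaged 30.4 ± 12.4 CPM in WT E2 and 9.91 ± 1.74 CPM in WT placebo libraries (SD). All 8 endothelial markers had a positive log2 fold change, as did 49.1% of all genes. The median log2 fold change of the 8 macrophage markers was 0.86. In these lists 0 markers passed the edgeR test for E2 in WT. C1qb, a complement chain made by macrophages, averaged 126 ± 43.9 CPM in WT E2 and 56.8 ± 11.8 CPM in WT placebo libraries (SD). In ERalphaKO against WT with E2, 5 of 8 macrophage markers were lower at an unadjusted edgeR p under 0.05, where 5.83% of all genes were. This comparison uses the same WT E2 libraries, so it is not separate evidence. Sost, an inhibitor of bone formation made by osteocytes, passed there at a log2 fold change of -2.02 ± 0.35 (edgeR adjusted p = 0.0211), beside 1.1% of all genes. The part of these cells in the Col8a1 difference was not tested.

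**Figure D3:**
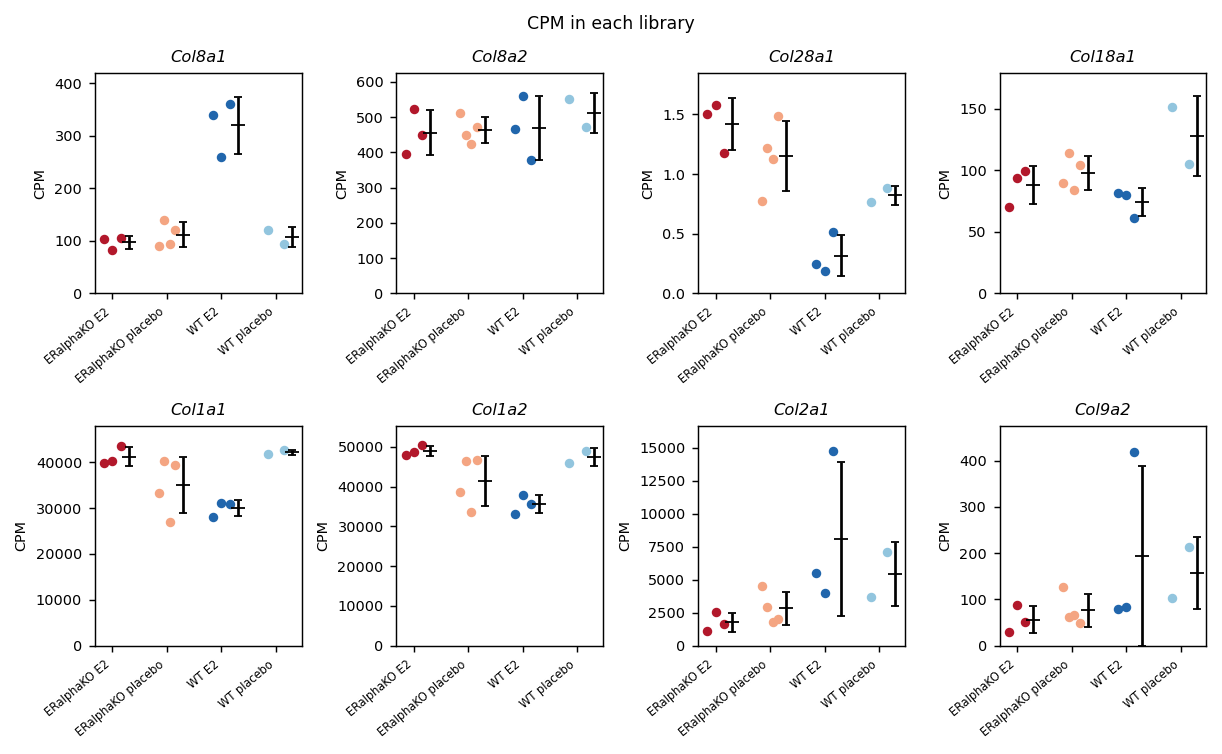
CPM of 8 collagen genes in each library (points) with the group mean and SD (bars), groups from left to right ERalphaKO E2, ERalphaKO placebo, WT E2 and WT placebo. Col8a1 is highest in the 3 WT E2 libraries, Col28a1 is lowest in them, and WT E2 replicate 3 stands far above all others for Col2a1 and Col9a2.

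Col28a1, the chain of a collagen known from peripheral nerve in the mouse, was the other collagen past the threshold and was scarce, with 225 counts in all libraries together. It had 1.51, 1.58 and 1.18 CPM in ERalphaKO E2 libraries and 0.778, 1.22, 1.12 and 1.49 CPM in ERalphaKO placebo libraries. It had 0.251, 0.188 and 0.512 CPM in WT E2 libraries, from 5, 4 and 10 counts, and 0.763 and 0.879 CPM in WT placebo libraries. The WT E2 libraries lay below all others.

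With E2, Col28a1 was 4.41-fold higher in ERalphaKO than in WT (log2 fold change 2.14 ± 0.40, 95% interval 1.22 to 3.06, edgeR adjusted p = 0.0322). The call was kept in 8 of 20 alternative settings, with estimates between 1.87 and 2.65. It was lost without both granulocyte-rich libraries (adjusted p = 0.126) and without any 1 of WT placebo replicates 1 and 2, WT E2 replicates 1 and 2, ERalphaKO placebo replicate 2 and ERalphaKO E2 replicates 1 to 3, where the edgeR adjusted p was between 0.0586 and 0.140. The E2 effect in WT was -1.37 ± 0.43 (edgeR adjusted p = 0.358) and that in ERalphaKO was 0.28 ± 0.34 (edgeR adjusted p = 0.997), so neither passed. The 7 peripheral nerve markers summed to 263.0 to 331.4 CPM in ERalphaKO E2 and 280.9 to 295.5 CPM in WT E2 libraries, ranges that overlapped. Of these markers, Sox10, a transcription factor of Schwann cells, passed the edgeR test in the same comparison (adjusted p = 0.0129), at 0.964, 1.05 and 0.562 CPM in ERalphaKO E2 and 0.151, 0.0941 and 0.0512 CPM in WT E2 libraries. The part of nerve cells in the Col28a1 difference was not tested.

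The E2 estimates of type I collagen were negative in WT and positive in ERalphaKO, and none passed the edgeR test. Col1a1 had 39742, 40229.5 and 43587 CPM in ERalphaKO E2 libraries and 33334, 40197, 27004 and 39482 CPM in ERalphaKO placebo libraries. It had 28092, 31176 and 30802 CPM in WT E2 libraries and 41689 and 42539 CPM in WT placebo libraries. WT E2 lay below both WT placebo and ERalphaKO E2 in every library, and the ERalphaKO groups overlapped.

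Col1a2 had 47885, 48797 and 50373 CPM in ERalphaKO E2 libraries, 38679, 46310.4, 33620.4 and 46714 CPM in ERalphaKO placebo, 33186, 37949.8 and 35718 CPM in WT E2 and 45871 and 49038 CPM in WT placebo. It had the same order, except that ERalphaKO E2 also lay wholly above ERalphaKO placebo. With E2 in WT, the estimate for Col1a1 was 1.40-fold lower (log2 fold change -0.49 ± 0.17, 95% interval -0.88 to -0.10, edgeR adjusted p = 0.444) and that for Col1a2 1.33-fold lower (-0.41 ± 0.16, 95% interval -0.78 to -0.05, edgeR adjusted p = 0.510). With E2, the genotype difference was 0.46 ± 0.15 for Col1a1 (95% interval 0.11 to 0.81, edgeR adjusted p = 0.250) and 0.46 ± 0.14 for Col1a2 (95% interval 0.13 to 0.79, edgeR adjusted p = 0.205).

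The E2 effect in ERalphaKO minus that in WT was 0.72 ± 0.22 for Col1a1 (edgeR adjusted p = 0.493, DESeq2 adjusted p = 0.0420) and 0.66 ± 0.20 for Col1a2 (edgeR adjusted p = 0.494, DESeq2 adjusted p = 0.0407). In the authors' deposited table for WT E2 over WT placebo, Col1a1 had a log2 fold change of -0.49 (adjusted p = 6.34e-05) and Col1a2 of -0.41 (adjusted p = 0.0114). In their deposited table for ERalphaKO E2 over WT E2, Col1a1 had 0.46 (adjusted p = 8.91e-06) and Col1a2 0.47 (adjusted p = 5.71e-06). The estimates of the authors and of the fit to the counts were thus close, and the tests set them on different sides of the threshold.

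**Figure D4:**
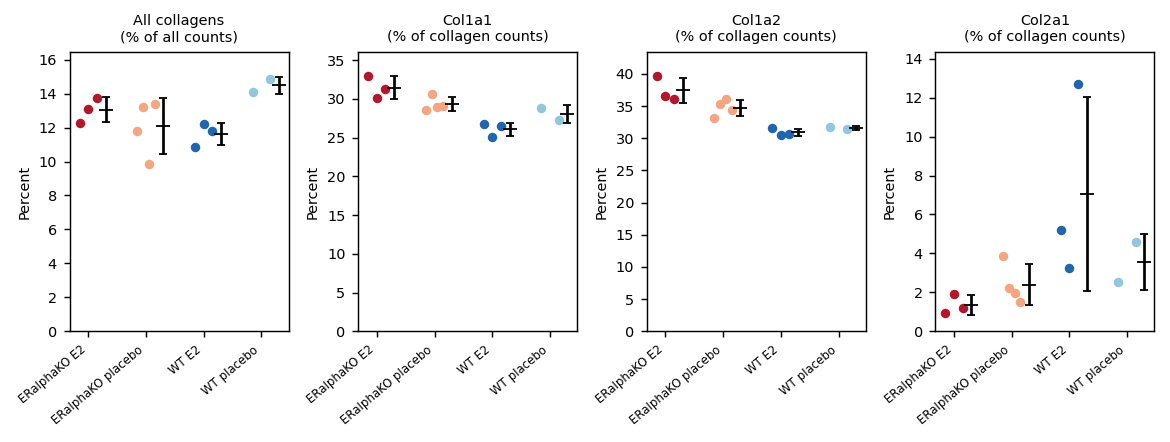
Share of all counts held by the 43 collagens, and share of collagen counts held by Col1a1, Col1a2 and Col2a1, in percent per library (points) with the group mean and SD (bars). All collagens stand lower in WT E2 (10.9 to 12.2%) than in WT placebo (14.1 and 14.8%), and Col2a1 reaches 12.7% of collagen counts in WT E2 replicate 3.

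As a share of collagen counts, Col1a1 averaged 31.4% ± 1.46 in ERalphaKO E2, 29.3% ± 0.886 in ERalphaKO placebo, 26.1% ± 0.857 in WT E2 and 28.1% ± 1.15 in WT placebo libraries (SD). Col1a2 averaged 37.4% ± 2.0, 34.7% ± 1.23, 30.9% ± 0.551 and 31.6% ± 0.262 in the same groups. Col3a1 had 11540.5, 15020.0 and 15515 CPM in ERalphaKO E2 libraries, 12188, 14037, 11415 and 16367 CPM in ERalphaKO placebo, 12235, 17382 and 8075 CPM in WT E2 and 18839 and 20911 CPM in WT placebo. The WT E2 libraries spread from the lowest to one of the highest values and yet all lay below WT placebo. The Col3a1 effect of E2 in WT was -0.66 ± 0.28 (edgeR adjusted p = 0.569), and its genotype difference with placebo was -0.56 ± 0.26 (edgeR adjusted p = 0.570). Of the type V chains, Col5a1 had an E2 effect in WT of -0.51 ± 0.22 (edgeR adjusted p = 0.592) and Col5a2 of -0.26 ± 0.17 (edgeR adjusted p = 0.764), while Col5a3 had 0.30 ± 0.38.

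Several collagens of cartilage varied widely between libraries of 1 group. Col2a1 had 1156, 2568 and 1647 CPM in ERalphaKO E2 libraries and 4533, 2919, 1839 and 2044 CPM in ERalphaKO placebo libraries. It had 5490.3, 4034 and 14781 CPM in WT E2 libraries and 3695 and 7146 CPM in WT placebo libraries. The 3 ERalphaKO E2 libraries lay below all 5 WT libraries, and WT E2 replicate 3 stood above all others.

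With E2, the Col2a1 estimate was 4.52-fold lower in ERalphaKO than in WT (log2 fold change -2.18 ± 0.54, 95% interval -3.42 to -0.93), which did not pass the edgeR test (adjusted p = 0.105), passed in DESeq2 (adjusted p = 0.0159) and was called in the authors' deposited table at a log2 fold change of -1.68 (adjusted p = 0.0424). Without WT E2 replicate 3 the log2 fold change was -1.41 (edgeR adjusted p = 0.279). With placebo the genotype difference was -0.94 ± 0.53 (edgeR adjusted p = 0.652), and averaged over treatments it was -1.56 ± 0.37 (edgeR adjusted p = 0.0910, DESeq2 adjusted p = 0.0184). DESeq2 called 3 collagens for that average, Col8a1, Col28a1 and Col2a1, beside 3.44% of all genes. Of the chondrocyte and fibrocartilage markers, 6 of 9 tested were lower in ERalphaKO with E2 at an unadjusted p under 0.05. Over all genes 5.83% were, and 0 of the markers passed the edgeR test. Comp averaged 1693 CPM in ERalphaKO E2 and 3651 CPM in WT E2 libraries. Acan (1166 and 1173 CPM), Sox9 (75.9 and 78.1 CPM) and Hapln1 (557 and 627 CPM) lay closer together in these groups. The whole list summed to 2611 to 4567 CPM in ERalphaKO E2 and 2502 to 5211 CPM in ERalphaKO placebo libraries. It summed to 4508 to 7906 CPM in WT E2 and 4280 to 6056 CPM in WT placebo libraries. The part of these markers in the Col2a1 difference was not tested.

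The type IX chains and Col10a1 had the same high library. Col9a2 had 30.3, 88.5 and 50.3 CPM in ERalphaKO E2 libraries, 127, 62.6, 65.9 and 49.3 CPM in ERalphaKO placebo, 80.1, 82.8 and 419.7 CPM in WT E2 and 103 and 213 CPM in WT placebo. Col9a1 had 8.01 to 431 CPM and Col9a3 36.0 to 435 CPM over the 12 libraries, with the highest value of each in WT E2 replicate 3, the next in WT placebo replicate 2 and the lowest in ERalphaKO E2 replicate 1. With E2, the genotype difference was -1.79 ± 0.68 for Col9a2 (edgeR adjusted p = 0.325), -1.65 ± 0.65 for Col9a3 (edgeR adjusted p = 0.353) and -1.82 ± 1.02 for Col9a1 (edgeR adjusted p = 0.550). None of the type IX chains passed, and their intervals were wide, for example -3.35 to -0.23 for Col9a2.

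Col10a1 had 100.3, 155 and 121 CPM in ERalphaKO E2 libraries, 167, 172, 75.6 and 106 CPM in ERalphaKO placebo, 129, 136 and 504 CPM in WT E2 and 191 and 178 CPM in WT placebo. Apart from WT E2 replicate 3, it stayed between 75.6 and 191 CPM, and its genotype difference with E2 was -1.03 ± 0.49 (edgeR adjusted p = 0.459). Col11a1 ranged from 873 to 2049 CPM and Col11a2 from 867 to 1993 CPM, and their genotype differences with E2 were -0.36 ± 0.22 (edgeR adjusted p = 0.589) and -0.03 ± 0.26 (edgeR adjusted p = 0.987). The cartilage fibril chains thus spread from a difference near 0 for Col11a2 to the largest estimate for Col2a1, and 0 of them passed the edgeR test.

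In ERalphaKO against WT with placebo, 0 of the 39 collagens passed the edgeR test, where 0.0135% of all genes did, and 0 passed in DESeq2, where 0.985% did. Of the 39, 34 had a negative and 5 a positive log2 fold change, with a median of -0.30 beside 0.01 over all genes. This comparison uses the same WT placebo libraries as E2 in WT, so the negative estimates of both are not separate evidence. Chains that follow each other across libraries, such as Col6a1 and Col6a2, are also not independent counts. The ERalphaKO placebo libraries lay wholly below WT placebo for 13 collagens and wholly above for 0, against 10.6% and 10.5% of all genes. All 11 fibrillar estimates were negative, as were all 5 of the tested type VI chains and 7 of 8 fibril-associated chains. At an unadjusted p under 0.05, 2 collagens were lower and 0 higher, where 3.86% of all genes were lower.

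These were Col13a1, a transmembrane collagen of cell adhesion sites, and Col16a1. Col13a1 had 188, 277 and 233 CPM in ERalphaKO E2 libraries, 199, 223, 196 and 223 CPM in ERalphaKO placebo, 264, 328 and 205 CPM in WT E2 and 312 and 305 CPM in WT placebo. The ERalphaKO placebo libraries were below both WT placebo libraries, with a log2 fold change of -0.55 ± 0.18 (95% interval -0.96 to -0.14, edgeR adjusted p = 0.451). Col16a1 had 1648, 2155 and 1994 CPM in ERalphaKO E2 libraries, 1889, 1978, 1682 and 2092 CPM in ERalphaKO placebo, 1816, 2568 and 1444 CPM in WT E2 and 2584 and 2984 CPM in WT placebo. It was again below WT placebo in all ERalphaKO placebo libraries, at -0.54 ± 0.20 (95% interval -1.003 to -0.08, edgeR adjusted p = 0.472). The authors' deposited table for ERalphaKO placebo over WT placebo gave adjusted p = 4.18e-05 for Col13a1 and 0.00287 for Col16a1, the 2 collagens called there beside 1.82% of all genes.

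For the other tested transmembrane chains the groups overlapped. Col25a1, a collagen known from neurons, had 21.6, 13.4 and 20.3 CPM in ERalphaKO E2 libraries, 20.3, 19.5, 14.6 and 17.3 CPM in ERalphaKO placebo, 19.7, 10.1 and 18.9 CPM in WT E2 and 19.0 and 18.9 CPM in WT placebo. Col23a1 had 5.66, 5.26 and 5.11 CPM in ERalphaKO E2 libraries, 4.73, 5.68, 4.38 and 5.27 CPM in ERalphaKO placebo, 5.12, 3.91 and 3.18 CPM in WT E2 and 3.87 and 4.40 CPM in WT placebo. Their genotype differences with placebo were -0.08 ± 0.26 (edgeR adjusted p = 0.954) and 0.28 ± 0.20 (edgeR adjusted p = 0.737).

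Among the remaining fibril-associated chains, Col12a1 had 2289.9, 2146 and 3268 CPM in ERalphaKO E2 libraries, 2809, 3316, 2366 and 3773 CPM in ERalphaKO placebo, 2004, 3464 and 1941 CPM in WT E2 and 3424 and 4100.5 CPM in WT placebo. Its E2 effect in WT was -0.61 ± 0.28 (edgeR adjusted p = 0.624) with overlapping groups. Col14a1, which binds the surface of type I fibrils, had 55.4, 45.4 and 67.4 CPM in ERalphaKO E2 libraries, 39.2, 61.4, 48.1 and 52.5 CPM in ERalphaKO placebo, 46.8, 30.4 and 14.1 CPM in WT E2 and 66.5 and 51.4 CPM in WT placebo. Its E2 effect in WT was -0.95 ± 0.38 (95% interval -1.82 to -0.09, edgeR adjusted p = 0.545), and its lowest value was in WT E2 replicate 3, the library highest for Col2a1.

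Col20a1 had 4.70, 6.41 and 4.09 CPM in ERalphaKO E2 libraries, 6.22, 4.15, 5.19 and 4.87 CPM in ERalphaKO placebo, 10.1, 7.63 and 8.19 CPM in WT E2 and 6.04 and 4.58 CPM in WT placebo. The WT E2 libraries stood above all others, with an E2 effect in WT of 0.71 ± 0.25 (edgeR adjusted p = 0.455) and a genotype difference with E2 of -0.78 ± 0.22 (edgeR adjusted p = 0.153, DESeq2 adjusted p = 0.0347). Col22a1 ranged from 172 to 269 CPM and had an E2 effect in WT of 0.37 ± 0.17 (edgeR adjusted p = 0.602) with overlapping groups.

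Col18a1, the multiplexin whose end fragment is endostatin, had 70.1, 94.2 and 99.4 CPM in ERalphaKO E2 libraries, 90.01, 114, 83.7 and 104 CPM in ERalphaKO placebo, 81.3, 80.3 and 61.4 CPM in WT E2 and 151 and 105 CPM in WT placebo. In WT the estimate with E2 was 1.72-fold lower (log2 fold change -0.78 ± 0.20, 95% interval -1.25 to -0.32), which did not pass the edgeR test (adjusted p = 0.205), passed in DESeq2 (adjusted p = 0.0191) and stood in the authors' deposited table at -0.75 (adjusted p = 0.0255). The 3 WT E2 libraries lay below both WT placebo libraries but overlapped ERalphaKO E2. Col15a1, the other multiplexin, had 336, 419.6 and 425 CPM in ERalphaKO E2 libraries, 500.1, 468, 251 and 503 CPM in ERalphaKO placebo, 363, 484 and 300.5 CPM in WT E2 and 519 and 509 CPM in WT placebo. Its E2 effect in WT was -0.42 ± 0.28 (edgeR adjusted p = 0.768).

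Of the basement membrane network, Col4a2 had 260.4, 357 and 336 CPM in ERalphaKO E2 libraries, 337, 338, 248.8 and 348 CPM in ERalphaKO placebo, 350.1, 355 and 357 CPM in WT E2 and 378 and 359 CPM in WT placebo. Col4a1, which starts beside Col4a2 on the opposite strand, with RefSeq transcripts that overlap by 22 bases, had 303, 325 and 360.2 CPM in ERalphaKO E2 libraries, 311, 344, 281 and 339.8 CPM in ERalphaKO placebo, 422, 365 and 398 CPM in WT E2 and 397 and 344 CPM in WT placebo. ERalphaKO E2 lay below WT E2 in every library for Col4a1 (-0.26 ± 0.11, edgeR adjusted p = 0.381) and overlapped for Col4a2 (-0.16 ± 0.14, edgeR adjusted p = 0.754). The anchoring fibril chain Col7a1 had 1.57, 2.42 and 2.35 CPM in ERalphaKO E2 libraries, 1.62, 2.53, 2.44 and 2.65 CPM in ERalphaKO placebo, 2.01, 2.82 and 3.79 CPM in WT E2 and 1.58 and 3.11 CPM in WT placebo, with overlapping groups and a genotype difference with E2 of -0.45 ± 0.34 (edgeR adjusted p = 0.689).

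With E2 in both genotypes, the counts over the class lists were as follows. Of 39 collagens, Col28a1 was called higher and Col8a1 lower in ERalphaKO by the edgeR test. At an unadjusted p under 0.05, 4 were higher and 7 lower, where 5.68% and 5.83% of all genes were, and the median was -0.16 beside -0.0031 over all genes. All 8 tested network chains had negative estimates, with a median of -0.22, whereas fibrillar chains had 3 positive and 8 negative ones with a median of -0.01. DESeq2 called 6 collagens here, Col8a1, Col28a1, Col1a2, Col2a1, Col1a1 and Col20a1, beside 3.06% of all genes, and the authors' deposited table called 5 of these, all but Col20a1, beside 3.75% of all genes.

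For the difference of E2 effects between genotypes, 0 collagens passed the edgeR test, where 0.0539% of all genes did, with 7 at an unadjusted p under 0.05 (6.78% of all genes), and 3 passed in DESeq2 (Col8a1, Col1a2 and Col1a1), beside 0.644% of all genes. Apart from Col8a1 and type I collagen, the next smallest p was that of Col28a1, at 1.65 ± 0.54 (edgeR adjusted p = 0.559).

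**Figure D5:**
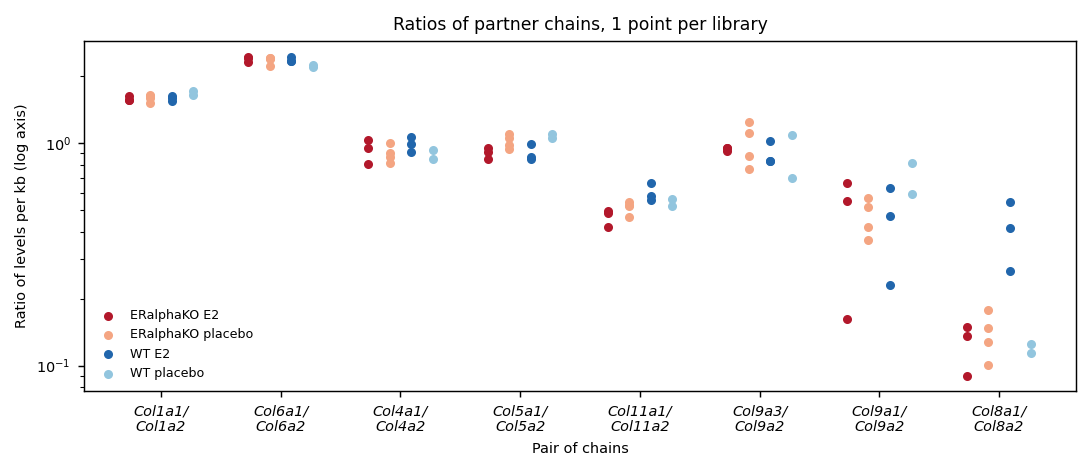
Ratio of CPM per kb (log axis) between chains of 1 collagen type, 1 point per library and groups from left to right ERalphaKO E2, ERalphaKO placebo, WT E2 and WT placebo. Col1a1/Col1a2 stays between 1.52 and 1.72, while Col8a1/Col8a2 runs from 0.0902 to 0.547 with the WT E2 libraries on top.

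Chains that assemble into 1 collagen kept a steady ratio in some types and not in others, as a description over the 12 libraries. On the scale of CPM per kb, Col1a1 to Col1a2 ranged from 1.52 to 1.72, a 1.13-fold span, and Col6a1 to Col6a2 from 2.20 to 2.45, a 1.12-fold span, while Col6a3 to Col6a2 spanned 1.66-fold (0.579 to 0.961). Col4a1 to Col4a2 spanned 1.32-fold (0.808 to 1.07), Col5a1 to Col5a2 1.30-fold (0.848 to 1.10) and Col11a1 to Col11a2 1.59-fold (0.419 to 0.666). Within type IX, Col9a3 to Col9a2 spanned 1.77-fold (0.701 to 1.24) but Col9a1 to Col9a2 5.03-fold (0.161 to 0.813). Col8a1 to Col8a2 spanned 6.06-fold, from 0.0902 to 0.547. Between types, Col2a1 to Col1a1 spanned 16.5-fold, with 0.0207 the lowest (ERalphaKO E2 replicate 1) and 0.341 the highest (WT E2 replicate 3).

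Of 44 genes that modify, fold, process, cross-link or bind collagen, 41 were tested, and 0 passed the edgeR test in any comparison. At an unadjusted p under 0.05, E2 in WT had 4 higher and 11 lower (4.42% and 3.73% of all genes). At this p, E2 in ERalphaKO had 1 higher and 2 lower (1.48% and 4.22% of all genes). ERalphaKO against WT with placebo had 0 higher and 13 lower (5.07% and 3.86% of all genes). ERalphaKO against WT with E2 had 1 higher and 8 lower (5.68% and 5.83% of all genes). The E2 effect in WT and the genotype difference with placebo share the WT placebo libraries. The median log2 fold change was -0.25 for E2 in WT, 0.05 for E2 in ERalphaKO, -0.24 for genotype with placebo and -0.02 for genotype with E2. DESeq2 called Lair1 and Glt25d2 for E2 in WT, beside 1.64% of all genes, and both of these with Lox, Loxl1, Loxl4 and Plod2 for genotype with E2, beside 3.06%.

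The enzymes of prolyl and lysyl modification included P4hb, a subunit of prolyl hydroxylase, at 1063, 1158 and 1219 CPM in ERalphaKO E2 libraries, 1053, 1192, 1029 and 1269 CPM in ERalphaKO placebo, 1238, 1200.3 and 1141 CPM in WT E2 and 1389.6 and 1493 CPM in WT placebo. Plod2, the lysyl hydroxylase of collagen telopeptides, had 518, 554 and 585 CPM in ERalphaKO E2 libraries, 558, 555, 355 and 520.1 CPM in ERalphaKO placebo, 809, 805 and 834 CPM in WT E2 and 515 and 631 CPM in WT placebo. P4hb was highest in both WT placebo libraries, while Plod2 was highest in the 3 WT E2 libraries. The E2 effect in WT was -0.27 ± 0.11 for P4hb (edgeR adjusted p = 0.569) and 0.51 ± 0.18 for Plod2 (edgeR adjusted p = 0.457). Glt25d2, the older symbol of the collagen galactosyltransferase gene Colgalt2, had 39.3 ± 6.16, 41.9 ± 13.7, 98.4 ± 25.4 and 45.1 ± 12.7 CPM in ERalphaKO E2, ERalphaKO placebo, WT E2 and WT placebo libraries (SD), with a genotype difference with E2 of -1.33 ± 0.28 (edgeR adjusted p = 0.0564, DESeq2 adjusted p = 0.000199).

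Of the folding and export genes, Serpinh1, the collagen chaperone, ranged from 1939 to 3168 CPM and Fkbp10, a prolyl isomerase, from 360.0 to 570.1 CPM. The genotype difference with placebo was -0.47 ± 0.15 for Serpinh1 (edgeR adjusted p = 0.451) and -0.35 ± 0.12 for Fkbp10 (edgeR adjusted p = 0.459). The rows of the export factors Mia2 and Mia3 held 0 counts in every library, as did 4326 of all 23284 rows. The annotation and counting tool are not given, so these zeros cannot show that the genes were silent. The propeptide genes Pcolce, an enhancer of the C-proteinase, and Bmp1, the proteinase itself, ranged from 742 to 1082 CPM and from 513 to 741 CPM, with E2 effects in WT of -0.29 ± 0.13 and 0.02 ± 0.12.

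Of the cross-linking lysyl oxidases, Loxl2 ranged from 554 to 1129 CPM, and Lox had 319, 339 and 325 CPM in ERalphaKO E2 libraries, 320.3, 355, 275 and 325 CPM in ERalphaKO placebo, 495, 445 and 452 CPM in WT E2 and 406 and 305 CPM in WT placebo. Lox was higher in every WT E2 library than in any other, with a genotype difference with E2 of -0.50 ± 0.12 (edgeR adjusted p = 0.0902, DESeq2 adjusted p = 0.00345). Of the receptors, Itga10, an integrin chain of chondrocytes, and Ddr2, a receptor kinase for fibrillar collagen, ranged from 244 to 532 CPM and from 245 to 358 CPM. Lair1, an inhibitory collagen receptor of immune cells, had 6.14, 5.26 and 6.49 CPM in ERalphaKO E2 libraries, 6.46, 6.72, 14.3 and 7.16 CPM in ERalphaKO placebo, 16.7, 11.4 and 28.2 CPM in WT E2 and 5.40 and 5.28 CPM in WT placebo. Its E2 effect in WT was 1.81 ± 0.43 (edgeR adjusted p = 0.150, DESeq2 adjusted p = 0.00151), and the 5 macrophage markers named above lay above WT placebo in the same libraries. Their part in the Lair1 difference was not tested.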

How the data were processed

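RNA of 12 libraries was enriched for polyadenylated transcripts and read as 100-base reads, per the labels. The submitters' processing notes name bcl2fastq 2.17, TopHat and build mm9. Counting tool, annotation, strand and multiply matching reads are not given in the sources used here, and overlapping genes can share counts. The authors deposited raw counts per gene symbol, and comparison tables in the DESeq2 layout, per the file headers, with log2 fold changes and p-values.

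From the counts, edgeR 4.0.16 (R 4.3.3, trimmed mean of M values, filterByExpr with a minimum count of 10) was fitted with 1 mean per group over all 12 libraries, 8 residual degrees of freedom and a biological coefficient of variation of 25.9%. Quasi-likelihood p-values were two-sided and adjusted by Benjamini-Hochberg over 14832 genes, with a threshold of 0.05. DESeq2 1.42.0 was an alternative. SE was obtained by dividing each log2 fold change by √F, and 95% intervals use the 8 residual degrees of freedom, so they are slightly wider than the moderated test. Exon lengths were from GENCODE M21, promoters from RefSeq GRCm38.p6, and no coordinates were converted. The script was also run on simulated data, and the share of changes recovered and the false calls there are not given here. A library with 3 counts of a gene stood at 0.104 to 0.309 CPM.

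Values per library are given for collagens past the threshold, for the 3 most expressed per class (1 in classes under 4 genes) and for the smallest p per comparison. The members and lists were chosen with earlier results of these data known. Col2a1, Col4a1, Col14a1, Col18a1, Col20a1, Plod2, Lox, Lair1, Glt25d2 and the markers C1qb, Sost, Sox10 and Vwf were described in more detail after their values were seen.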

Additional observations from a re-analysis of the deposited data

Results flagged for a closer look

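In 44 sets of values from the 4 ERalphaKO placebo libraries, the one group large enough for this check, 3 sets had a library far from the others. Chance alone flags about 1 set in 20, so 3 of 44 is close to what chance gives. Col4a2 stood at 248.8 CPM in ERalphaKO placebo replicate 3, against 337 to 348 CPM in the others. Col15a1 stood at 251 CPM in the same library, against 468 to 503 CPM. That library had the highest granulocyte and muscle marker sums, 16660 and 4456 CPM, whose part in these values was not tested. Col19a1 stood at 0.322 CPM in ERalphaKO placebo replicate 4, from 8 counts, and had 0 counts in the other 3 libraries. Beside 3 values of 0 any count is flagged by this check, so this flag cannot mark a library as unusual.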

How the results depend on the processing

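In DESeq2, E2 in WT gave 1 collagen lower and 246 genes called (68 in edgeR), genotype with placebo 151 genes (2 in edgeR), genotype with E2 3 collagens higher, 3 lower and 491 genes (163 in edgeR), the genotype average 1 higher, 2 lower and 565 genes (145 in edgeR), and the difference of E2 effects 2 higher, 1 lower and 101 genes (8 in edgeR). With the replicate block, collagens called were 0 higher for E2 in WT and for genotype with E2 and 0 lower for the genotype average, and all genes called were 18, 0, 62, 34 and 3 for E2 in WT, genotype with placebo, genotype with E2, the genotype average and the difference of effects. In the replicate block the Col8a1 effect of E2 in WT had an edgeR adjusted p of 0.136. The labels do not pair equal numbers. Of 15 same-number pairs, 9 had correlated deviations above 0.1, from -0.326 to 0.5, and 6 of 12 libraries matched their own number best. Same-number pairs averaged 0.116 and other pairs -0.0457, and other pairs ran from -0.5 to 0.516. Deviations of both WT placebo libraries mirror each other by construction, so the signs of their pairs are tied. With muscle markers as a covariate, genes called were 40, 1, 95, 92 and 0 in the same order, and 0 collagens were higher for genotype with E2. Without both granulocyte-rich libraries, 57 genes were called for genotype with placebo and 70 for genotype with E2, 0 collagens were higher for genotype with E2 and 0 lower for the genotype average. With only the 2 groups compared, genes called were 7, 0 and 66 for E2 in WT, genotype with placebo and genotype with E2, and 0 collagens were higher for E2 in WT and for genotype with E2. These causes were not tested.

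Leaving out 1 library at a time, genes called ranged from 1 to 131 for E2 in WT, 1 to 4 for genotype with placebo, 51 to 236 for genotype with E2, 13 to 247 for the genotype average and 0 to 31 for the difference of effects, and were 0 for E2 in ERalphaKO. Collagens called higher ranged from 0 to 1 for E2 in WT, genotype with E2 and the genotype average. Collagens called lower ranged from 0 to 1 for the genotype average and the difference of effects and stayed at 1 for genotype with E2. Over 43 pairs of a gene and a comparison with an unadjusted p under 0.05, no estimate changed sign in any of these settings. The pairs were chosen by that p in the same libraries, so a kept sign was largely set in advance and is no support for them. Other scalings (size factors of DESeq2, or without the collagen rows) and no filter moved no count of collagens called. WT placebo had 2 libraries, which limits every comparison that uses it, and a test that missed the threshold does not show that levels were equal.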
